A study of Drosophila melanogaster with 4 samples.

Results

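Broad H3K4me1 domains are stretches of 10 kb or more that were called as a single enriched region in the series-wide list of regions (the combined list). There were 1043 of them among 9501 enriched regions (11.0%). The mark was mapped in Drosophila melanogaster by ChIP-seq, in which chromatin carrying it is immunoprecipitated and sequenced. The nuclei were from larvae of the third instar, the last larval stage, of the wild-type strain Oregon-R. There were 2 ChIP samples, replicates 1 and 2, made with a single lot of the antibody ab8895, and 2 input samples of sheared chromatin that served as background and had no region list of their own here. Nothing says that the replicates came from separate animals or cultures, so the spread between them may be technical.

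H3K4me1 is monomethylation of lysine 4 of histone H3. In flies it is placed mainly by Trithorax-related, the catalytic subunit of a COMPASS-like complex, and it marks active and primed enhancers and the flanks of active promoters. Long marked stretches are known around genes with many enhancers. The chromatin came from many larval tissues together, so a domain marked throughout in a single cell type and adjoining parts marked in different cell types cannot be told apart.

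The members were chosen by width, read from start and end, and score, gaps and neighbours come from the same region calls. All values here are therefore descriptions and carry no test. Regions of 3 to under 10 kb in the same list, 3416 in number, are given as the comparison. Values from the replicate lists stand beside those from the combined list, and they are not independent of it, since these are the only ChIP samples of the series used here. The 3 members nearest the threshold were 3R:9649698-9659698, 3L:19618545-19628546 and 3R:10720096-10730107, with scores of 0.62, 0.75 and 0.79. The 3 regions just below it were 3L:12821670-12831667, 2R:4002930-4012926 and 3R:218418-228413, with scores of 0.84, 1.21 and 0.80. The scores of both sets of 3 lay within the range of broad domains, 0.45 to 1.78. Sequencing depth is unknown.

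The broad domains held 17.1 Mb, or 38.3% of all enriched bases of the combined list. Their median width was 14.3 kb, with quartiles of 11.6 and 18.8 kb. There were 202 domains of 20 kb or more, 50 of 30 kb or more and 11 of 40 kb or more. The same width threshold gave 738 regions in replicate 1 and 612 in replicate 2, which held 33.1% and 23.7% of the enriched bases of their lists (28.4% ± 6.66, SD, n = 2). The combined list thus had more broad regions than either replicate, and the widest region of all was in replicate 1, at 79.3 kb, against 71.0 kb in the combined list and 50.9 kb in replicate 2.

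The share of broad domains differed between arms. On 2R, 13.2% of regions were broad and these held 18.2% of the arm. On X 12.2% were broad and held 16.7% of the arm. The lowest share of an arm was on 2L, at 10.8%, with 12.2% on 3L and 14.3% on 3R. Regions of 3 to under 10 kb were spread more evenly, holding between 12.9% of 2L and 16.9% of 3R. In the replicate lists 2R again had the most broad regions per Mb, 7.66 in replicate 1 and 7.19 in replicate 2, and 2L the fewest, 4.65 and 3.95. Chromosome 4 had no member, and replicate 1 had a single region of 10 kb or more there.

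The domains were unevenly spaced. The median distance from the end of a domain to the start of the next was 39.2 kb, but 25% of distances were 8.83 kb or shorter and 10% were 254 kb or longer. The mean, 90.8 kb, lay far above the median. The coefficient of variation of the distances was 1.55 for broad domains and 1.67 for regions of 3 to under 10 kb, where the median was 11.1 kb. It was 1.43 against 1.59 in replicate 1 and 1.84 against 1.88 in replicate 2. By this measure the broad domains were no more unevenly spaced than the narrower regions. Within the 5 large arms the coefficient for broad domains ran from 1.26 on 3R to 1.70 on 2L. In the replicate lists, which held fewer broad regions, the median distances were longer, at 67.3 kb in replicate 1 and 73.5 kb in replicate 2. Median distances on the arms ran from 27.3 kb on 2R to 49.3 kb on 3L in the combined list.

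Counts per 1 Mb gave another picture. In 117 full windows of the large arms the number of broad domains ran from 0 to 21, with a median of 8. The number of regions of 3 to under 10 kb ran from 0 to 48, with a median of 29. Variance over mean was 2.44 for broad domains and 3.11 for the narrower regions. That ratio grows with the mean count, so the variance beyond the mean, divided by the squared mean, was used to set the classes side by side. It was 0.162 for broad domains against 0.0734 for regions of 3 to under 10 kb. The order was the same in replicate 1, at 0.109 against 0.0664, and in replicate 2, at 0.394 against 0.100. By this measure the broad domains were more concentrated in certain windows than the narrower regions, in all 3 lists.

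The richest windows lay on 2R, X and 3L. The window 2R:3000001-4000000 had 21 broad domains in the combined list, 12 in replicate 1 and 16 in replicate 2. It was followed by 2R:19000001-20000000 with 20, and by X:6000001-7000000, 2R:18000001-19000000 and 2R:20000001-21000000 with 19 each. Of these, X:6000001-7000000 had 13 broad regions in replicate 1 and 12 in replicate 2, while 2R:20000001-21000000 had 12 and 19. Across windows the counts of replicates 1 and 2 had a Spearman rho of 0.65 (117 windows, which share the genome and its mappable sequence). The counts of broad and narrower regions in the combined list had a rho of 0.31. A window rich in broad domains was therefore only loosely a window rich in narrower ones. X:6000001-7000000, for example, had 22 regions of 3 to under 10 kb, below the median. Both classes fill the same window, so broad domains leave less room for narrower regions, and the rho was not adjusted for this.

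Near the centromere broad domains thinned out more than narrower regions did. In the 2 Mb next to the centromere of the large arms there were 2.40 broad domains per Mb, against 9.35 in the rest of the arms. For regions of 3 to under 10 kb the densities were 15.6 and 29.8 per Mb. In replicate 1 the broad densities were 2.20 and 6.56 per Mb, and in replicate 2 they were 1.20 and 5.50 per Mb. The arm 3R was unlike the others, with 16 of the 24 domains of this zone: 6 in its first Mb and 10 in the second. On X, 2L, 2R and 3L the Mb at the centromere-side end had 0 members each. How much of this zone can take up aligned reads was not measured.

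**Figure D1:**
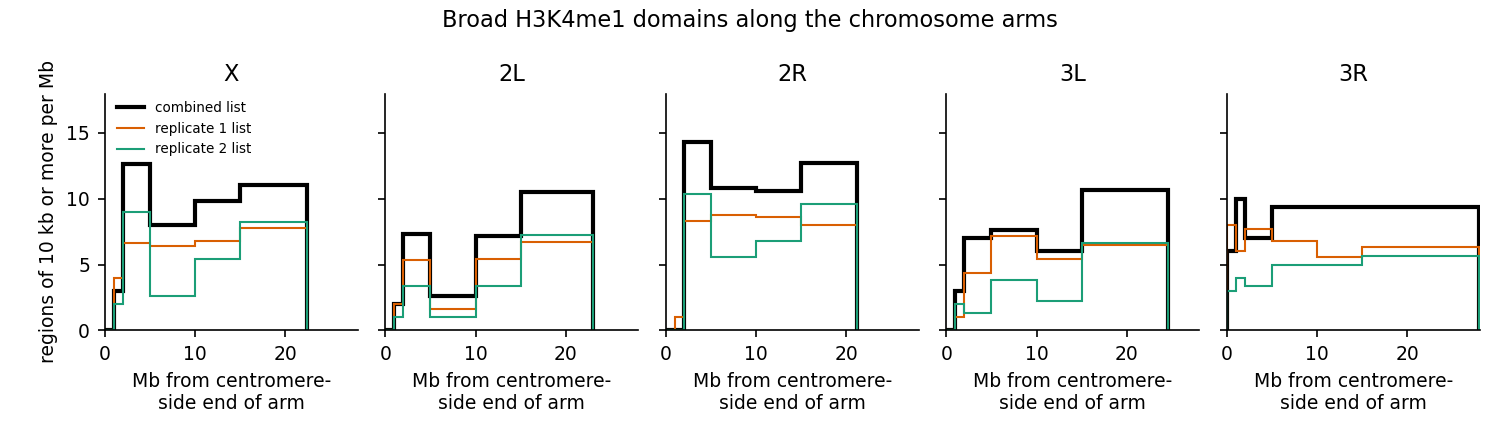
Regions of 10 kb or more per Mb (vertical axis) against distance from the centromere-side end of each large arm in Mb (horizontal axis), in steps of 0 to 1, 1 to 2, 2 to 5, 5 to 10, 10 to 15 and over 15 Mb. The thick black line is the combined list and the thin lines are the replicate lists. In the combined list densities are lowest in the first 2 Mb on all arms but 3R, and 2L has a second low between 5 and 10 Mb, at 2.60 per Mb.

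Long stretches between successive broad domains were not empty of the mark. Stretches at the ends of arms were left out of this ranking, and some of those held little or none. The window 2R:1-1000000 was covered to 1.03% in the combined list and 3L:23000001-24000000 to 0%. The longest stretches between domains on each arm, named after their values were seen, measured between 752 kb on 3R and 1901 kb on 2L. The stretch 2L:14363851-16264724 held 97 enriched regions, 36 of them of 3 kb or more, and the widest measured 9.42 kb. It was covered to 15.3% in the combined list, 10.7% in replicate 1 and 11.9% in replicate 2. Neither replicate had a region of 10 kb or more in it. The next longest, X:4573611-5579779 (1006 kb), held 59 enriched regions and was covered to 20.5%. The stretches 2R:15359739-16135007, 3L:9892551-10658189 and 3R:21935634-22687153 were covered to 18.1%, 12.1% and 19.0%. No region of 10 kb or more of either replicate lay in any of the 5 stretches.

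Some broad domains stood side by side. Of the 1043, 341 (32.7%, 95% Wilson interval 29.9 to 35.6) had another broad domain within 5 kb, measured from end to start. That interval treats domains as independent, but neighbours count each other, so it does not properly cover even the counting error. Of regions of 3 to under 10 kb, which are more numerous, 58.2% had another of their own class within 5 kb. The 341 domains formed 150 chains, of which 116 were pairs, 28 were triples and 6 had 4 or 5 domains. In 176 of 1038 successive pairs (17.0%) no other enriched region lay between the 2 domains, and the median number of regions between was 4. The next region on either side of a broad domain was itself broad in 16.9% of cases, against 12.6% for regions of 3 to under 10 kb. The shares were 12.6% against 11.3% in replicate 1 and 11.3% against 7.75% in replicate 2. Of broad regions in the replicate lists, 18.2% in replicate 1 and 22.7% in replicate 2 had a broad neighbour within 5 kb (20.4% ± 3.22, SD, n = 2). Among regions of 3 to under 10 kb, with their own class, the shares were 52.7% in replicate 1 and 63.8% in replicate 2. On the arms the share in the combined list ran from 26.8% on 3L to 40.4% on 2R.

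The chain with the most members on each arm was taken, and among ties the one covering more bases. On 2R this was 2R:8810877-8931305, which spanned 120 kb with 4 domains of 10.5 to 49.1 kb. It was divided into 7 regions in replicate 1 and into 13 in replicate 2, which covered 93.3% of it. On 3R the chain 3R:16364893-16433526 had 5 domains in 68.6 kb and gaps of 124 to 757 bases. Replicate 1 covered 96.3% of that chain and replicate 2 covered 91.8%. On 2L the chain 2L:476199-577149 had 3 domains in 101 kb, with 83.4% covered in replicate 1 and 95.7% in replicate 2. On X the chain X:1919289-2004840 had 4 domains with scores of 1.08 to 1.57, and replicates 1 and 2 covered 82.1% and 93.7% of it. On 3L the chain 3L:3370243-3443650 had 4 domains with lower scores, 0.60 to 0.93, and replicates 1 and 2 covered 83.1% and 77.3%.

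The closest pairs of domains were all but touching. On 3R, the domain 3R:16582849-16597390 ended 1 base before 3R:16597391-16608578 began, a gap of 0 bases. The next gaps were 5 bases between 3L:13465659-13476693 and 3L:13476699-13495559, 7 bases between X:13705215-13716370 and X:13716378-13726702, and 15 bases between 2L:8695599-8709974 and 2L:8709990-8722193. The fifth, 28 bases, was between 2R:8340408-8352962 and 2R:8352991-8373362. In the fifth pair a single region of replicate 2 ran across the break. In the others no region of either replicate did.

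Few domains were continuous in both replicate lists. A domain was counted as continuous in a replicate where a single region of that replicate covered 90% or more of it. Of the 1043 domains, 88 (8.44%, Wilson interval 6.90 to 10.3) were continuous in both replicates and 437 (41.9%) in neither. Another 271 were continuous in replicate 1 only and 247 in replicate 2 only. The interval treats domains as independent, but 1 replicate region can cover more than 1 domain, so it covers counting error at most. For regions of 3 to under 10 kb the shares were 16.0% in both and 26.2% in neither. On each of the 5 large arms the share continuous in both was lower for broad domains, from 5.66% on X to 11.4% on 2R, than for the narrower regions, from 13.8% on 3L to 19.1% on 2R. Within the broad domains the share fell with width, from 11.4% of those of 10 to under 12 kb to 2.00% of those of 30 kb or more, which is 1 of 50. Below 10 kb it lay between 15.0% and 17.8% in 4 width steps, with no steady trend. A wider region has more room for gaps between replicate regions, and the share was not adjusted for width. Counted per 100 kb, such gaps were level from 7 kb upward, as given below.

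**Figure D2:**
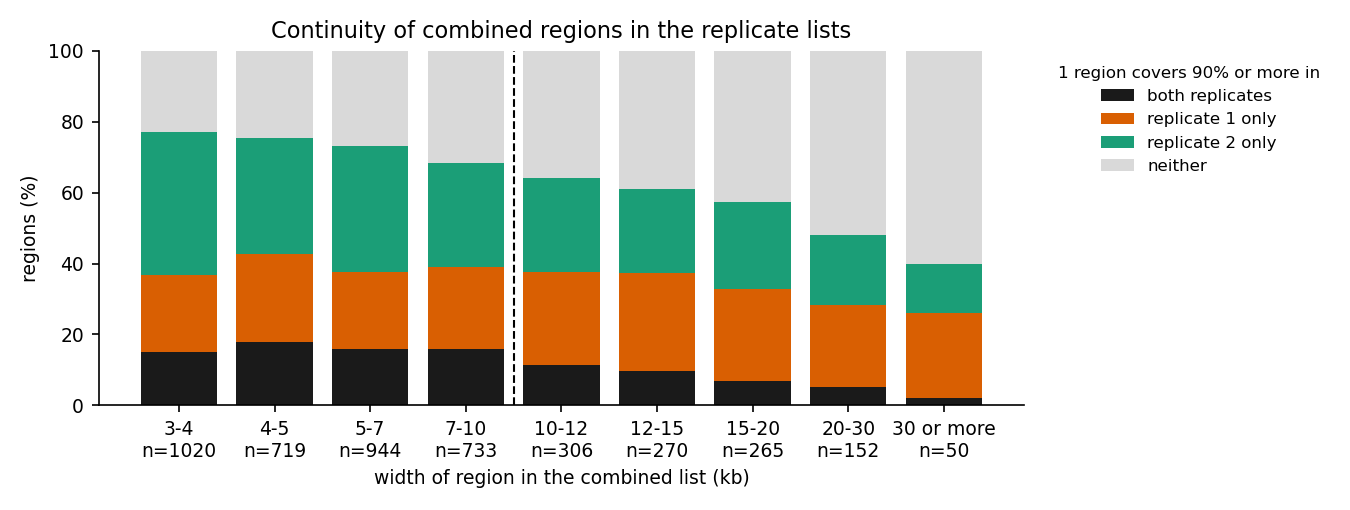
Share of regions of the combined list (vertical axis, %) that a single region covers to 90% or more in both replicates, in replicate 1 only, in replicate 2 only or in neither, by width in kb (horizontal axis, lower limit included). The dashed line marks 10 kb, with the broad domains on its right. The share in neither is 22.8% at 3 to under 4 kb and 60.0% at 30 kb or more.

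Little of a domain was unmarked all the same. All 1043 domains met a region of each replicate. Replicate 1 covered 88.7% of their bases and replicate 2 covered 91.4%, and 80.9% was covered by both. In regions of 3 to under 10 kb these shares were 78.7%, 85.7% and 67.1%. The shares rose with width on both sides of the threshold. At 7 to under 10 kb they were 83.4%, 89.0% and 74.2%, and at 10 to under 12 kb 86.5%, 90.2% and 77.7%. Bases covered by neither replicate made up 0.720% of the broad domains, against 2.68% of the narrower regions. Replicate 1 left 1931 kb of the domains uncovered and replicate 2 left 1461 kb, and 123 kb of this was the same sequence. That is 6.37% of what replicate 1 left out and 8.42% of what replicate 2 left out. These bases include the ends of domains as well as inner breaks, and the domains themselves were called on the same 2 samples, so the share says little of where the breaks lay. A domain covered by both replicates over less than 50% of its bases was found in 40 cases (3.84%), against 23.6% of regions of 3 to under 10 kb.

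Breaks inside domains were often short. Replicate 1 had 534 domains with 1 region, 333 with 2, 125 with 3 and 51 with 4 or more. Replicate 2 had 372 with 1, 356 with 2, 194 with 3 and 121 with 4 or more. The gaps between these regions had a median of 407.5 bases in replicate 1 and 465 in replicate 2, and 54.7% and 52.2% of them were under 500 bases. The longest measured 5778 and 6693 bases. Per 100 kb of domain there were 4.44 such gaps in replicate 1 and 6.78 in replicate 2, against 2.85 and 4.08 in regions of 3 to under 10 kb. A gap is counted only where marked sequence lies on both of its sides inside the region, so narrower regions leave less room for one. From 7 kb upward the number per 100 kb was level, between 4.01 and 4.74 in replicate 1 and between 5.79 and 7.16 in replicate 2.

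The middle of the domains was marked about equally in both replicates, and the ends were not. At the midpoint, replicate 1 covered 94.3% of domains and replicate 2 covered 92.0%. At 5% of the width from the start, replicate 1 covered 75.6% and replicate 2 covered 87.2%. The ends of the domains lay nearer to the ends of replicate 2 regions. Of 2086 domain ends, 1400 (67.1%) lay within 200 bases of the matching kind of end in replicate 2, and 776 (37.2%) in replicate 1. The median offset was 90.5 bases for replicate 2 and 344.5 for replicate 1. For regions of 3 to under 10 kb the medians were 91 and 342 bases, so this was not particular to the broad domains.

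Broad regions called in 1 replicate and looked up in the other gave a view that does not pass through the combined list. All 738 of replicate 1 and all 612 of replicate 2 met the other list. Replicate 2 covered 85.6% of the bases of the replicate 1 regions, and replicate 1 covered 86.2% of the bases of the replicate 2 regions. A single region covered 90% or more of 23.7% of the broad regions of replicate 1 and of 29.6% of those of replicate 2 (26.6% ± 4.15, SD, n = 2). For regions of 3 to under 10 kb these shares were 46.6% and 43.2%. Of the broad regions of replicate 1, 371 (50.3%) met a region of 10 kb or more in replicate 2, and 379 of those of replicate 2 (61.9%) met one in replicate 1. In both directions, then, broad regions were covered over most of their length but had a lower share found as a single region than narrower ones. These shares, too, were not adjusted for width.

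Not every member met a broad region in a replicate. Of the 1043, 356 (34.1%) met a region of 10 kb or more in both replicates, 306 in replicate 1 only, 206 in replicate 2 only and 175 (16.8%) in neither. Meeting needed only 1 shared base, so the replicate region could lie mostly outside the member, and wider members had more room to meet one. Of regions of 3 to under 10 kb, 90.8% met one in neither replicate. The 356 had a median width of 18.1 kb and a median score of 1.09. The 175 had a median width of 11.3 kb and a median score of 0.78, and the widest of them measured 23.3 kb. Their widest replicate regions had medians of 7.85 kb in replicate 1 and 7.29 kb in replicate 2. Of the 50 domains of 30 kb or more, 45 met a region of 10 kb or more in both replicates and 0 in neither.

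**Figure D3:**
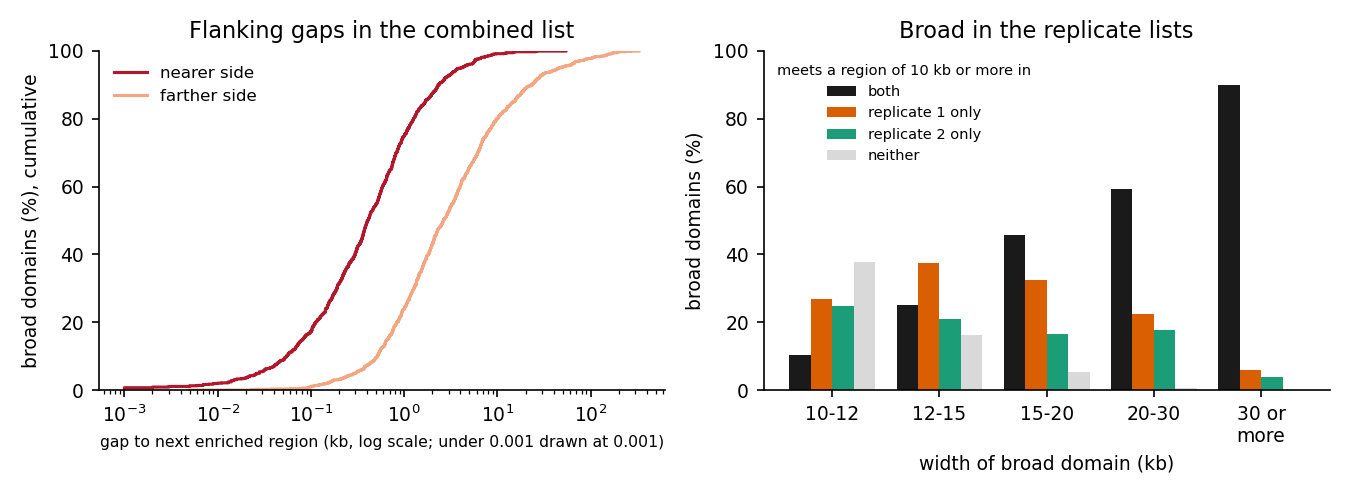
Left, cumulative share of the 1043 broad domains (vertical axis, %) by the gap to the next enriched region of the combined list in kb (log scale), on the nearer and on the farther side. Right, share of broad domains (vertical axis, %) that meet a region of 10 kb or more in both replicates, 1 replicate or neither, by width in kb. The nearer gap has a median of 406 bases and the farther one of 2651 bases, and the share met in both replicates is 10.5% at 10 to under 12 kb and 59.2% at 20 to under 30 kb.

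The widest domain of each arm shows how the replicates divided the same stretch. On X, X:1451981-1522942 (71.0 kb) was cut into 6 regions in replicate 1, the largest covering 34.6% of it, and into 2 in replicate 2. On 2L, 2L:476199-539228 (63.0 kb) was a single region in replicate 1 and 4 in replicate 2. On 2R, 2R:8882200-8931305 (49.1 kb) was covered to 100% by 1 region of replicate 1 and to 95.9% by 5 regions of replicate 2. On 3L, 3L:17954739-18017688 (63.0 kb) was 2 regions in replicate 1 and 6 in replicate 2. On 3R, 3R:12023857-12086057 (62.2 kb) was 1 region in replicate 1 and 5 in replicate 2. Only the X domain of these 5 was more divided in replicate 1.

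The most divided domain in replicate 1 was X:18135074-18180121 with 8 regions. It was followed by 3 domains with 6 regions, of which X:1451981-1522942 and X:19370144-19409666 were the widest. Replicate 2 had these 3 domains of X in 2, 2 and 4 regions. In replicate 2 the most divided was 3R:19828959-19860296 with 7 regions. It was followed by 9 domains with 6 regions, of which 3L:17954739-18017688 and X:19036669-19076306 were the widest. Replicate 1 had the 3 named domains in 3, 2 and 3 regions.

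In a few domains the coverage was mostly from a single replicate. Replicate 1 covered 100% of 2L:161177-174621, and replicate 2 covered 20.1%. The domain X:16810882-16821021 was covered to 87.6% in replicate 1 and 27.8% in replicate 2, and X:17619622-17631031 to 99.1% and 34.6%. The reverse held for 3L:658937-673753, with 20.1% in replicate 1 and 97.0% in replicate 2, and for 3L:585925-598889, with 28.7% and 97.2%. These 5, the least covered members, had combined scores between 0.53 and 0.69, at the low end for broad domains.

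Broad domains had high scores within their list. The score is the authors' own value for each region, with no scale given here, and lists were not set against each other by it. The median score of the members was 0.96, and 80% of them lay between 0.71 and 1.24. For regions of 3 to under 10 kb the median was 0.68. Of the 951 regions in the top 10% of scores, 472 were broad domains and 454 were regions of 3 to under 10 kb. These made up 45.3% of the broad domains and 13.3% of the narrower regions. Only 4 members scored below 0.47, the median of the whole list. The rise with width was gradual across the threshold. The median score was 0.83 at 7 to under 10 kb and 0.90 at 10 to under 12 kb. It was 1.01 at 20 to under 30 kb and 1.11 at 30 kb or more.

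Among the members themselves score followed width only loosely. Spearman's rho across the 1043 domains was 0.28. It was 0.40 across regions of 3 to under 10 kb, and 0.25 across those of 5 to under 10 kb, a set chosen after seeing the data. The replicate lists gave 0.26 in replicate 1 and 0.31 in replicate 2 for their own broad regions (0.29 ± 0.03, SD, n = 2). On the arms it lay between 0.21 on 2R and 0.29 on 2L. Width and score of a region come from the same call, and a cut on width narrows the range, so these are descriptions of the lists.

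**Figure D4:**
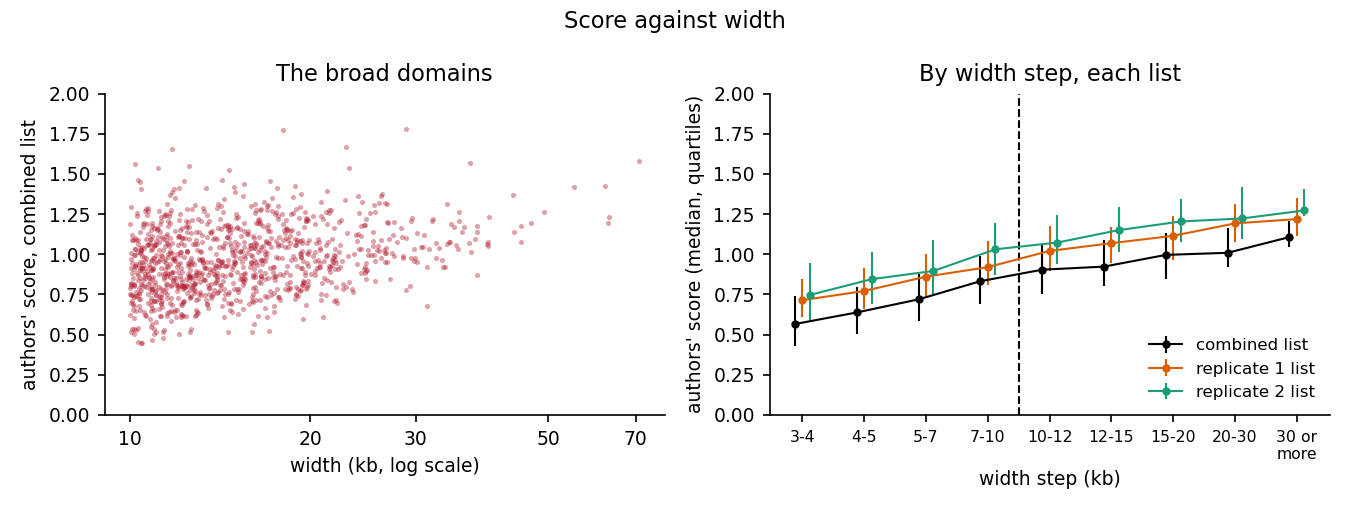
Left, the authors' score of each of the 1043 broad domains (vertical axis, combined list) against width in kb (log scale). Right, median score with the quartiles as bars by width step in kb, for each list within its own scale, with the dashed line at 10 kb. In the combined list the medians go from 0.57 at 3 to under 4 kb to 1.11 at 30 kb or more, and single domains of like width spread widely around them.

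The highest-scoring domain of an arm was not its widest on any of the large arms. On X it was X:2175006-2203906 (28.9 kb, score 1.78) and on 3R it was 3R:13520716-13543638 (22.9 kb, 1.67). On 3L it was 3L:22826141-22837894, only 11.8 kb wide, with a score of 1.66. On 2R it was 2R:3127423-3150619 (23.2 kb, 1.54), inside the window richest in broad domains. On 2L it was 2L:2739933-2757166 (17.2 kb, 1.35). In contrast with the widest domains, those on 2R, 3L and 3R were each a single region covering over 96% in both replicates: 99.2% and 98.7% on 2R, 96.1% and 98.8% on 3L, 96.2% and 99.9% on 3R.

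The domains continuous in both replicates were narrower and higher in score than those continuous in neither. The 88 domains continuous in both replicates had a median score of 1.17 and a median width of 12.7 kb. The 437 continuous in neither had a median score of 0.89 and a median width of 15.2 kb. A different measure, the share of a domain's bases covered by both replicates, had a rank correlation of 0.57 with score and of 0.14 with width across members. The combined list and its scores rest on the same 2 ChIP samples. Score is therefore not independent of continuity or coverage in the replicates. Scores of the 2 replicates over the same domains, averaged by overlapping bases, had a rho of 0.27, against 0.33 across 3173 regions of 3 to under 10 kb met by both.

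Broad domains did not stand alone. On its nearer side a domain lay a median of 406 bases from the next enriched region, and on its farther side 2651 bases. For regions of 3 to under 10 kb the medians were 533 and 3430 bases. The nearer gap was under 500 bases for 572 domains (54.8%) and under 100 bases for 180 (17.3%). On both sides it was under 500 bases for 101 domains, and over 5 kb for 42 (4.03%, against 6.80% of the narrower regions). Domains with a gap under 500 bases on one side and over 5 kb on the other numbered 135 (12.9%, against 11.9%). Left and right gaps were unrelated in rank (rho -0.01 across 1043 domains).

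The difference from narrower regions in the nearer gap was small beside the difference between replicates. In replicate 1 the median was 932 bases for broad regions against 1014 for those of 3 to under 10 kb, and in replicate 2 it was 480 against 589. Broad regions had the shorter median on all 5 large arms in the combined list and in replicate 2. In replicate 1 they had it on X, 2L and 3R but not on 2R, at 1306 against 1169 bases, or on 3L, at 1205 against 904.5 bases. By width, the median in the combined list was 565.5 bases at 3 to under 4 kb and 450.5 at 7 to under 10 kb. Within the broad domains it ran from 360 bases at 12 to under 15 kb to 507 at 30 kb or more. Among the members the nearer gap was unrelated to width (rho 0.01) and to score (rho -0.01). The regions next to broad domains were wider, with a median of 3794.5 bases against 2946 next to the narrower regions. In replicate 1 the medians were 3806 against 3469 bases, and in replicate 2 they were 3581 against 2825.

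Outside the gap, marked sequence returned and was denser than beside narrower regions. At 1 kb from a domain end 49.4% of positions were in another enriched region, at 3 kb 61.5% and at 50 kb 46.7%. For ends of regions of 3 to under 10 kb the shares were 43.5%, 53.7% and 44.6%. In replicate 1 the shares at 3 kb were 46.0% against 40.0%, and in replicate 2 they were 57.3% against 47.1%. The 5 kb outside a domain end were without any enriched base in 19.2% of cases, against 23.1% for the narrower regions.

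**Figure D5:**
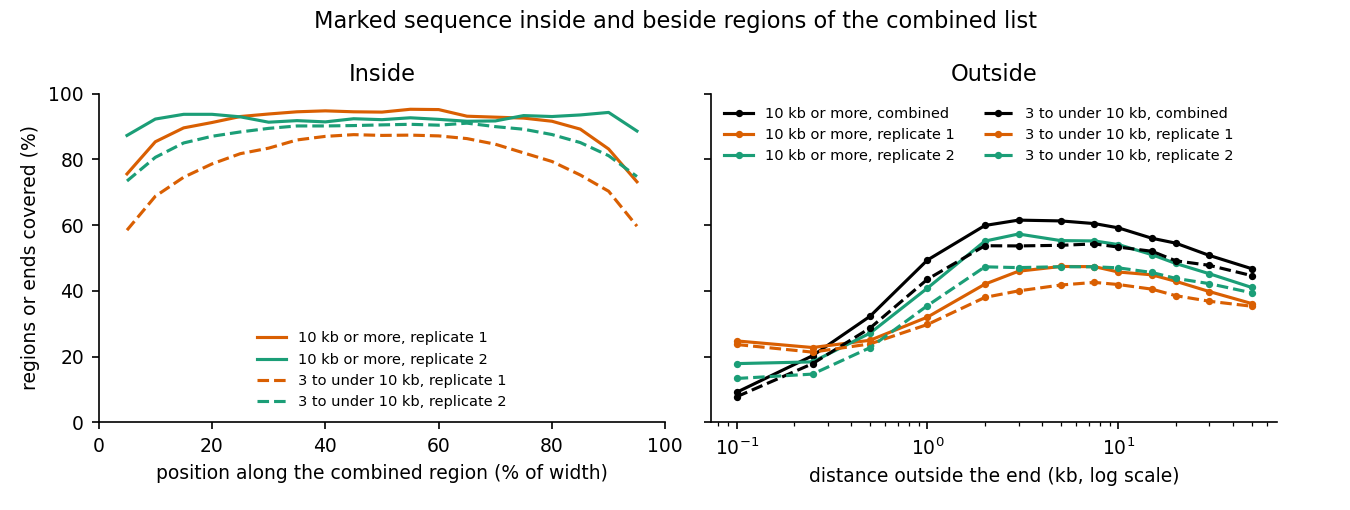
Left, share of combined regions (vertical axis, %) covered by each replicate list at positions along their width (horizontal axis, %). Right, share of region ends (vertical axis, %) with an enriched region at a given distance outside (horizontal axis, kb, log scale) in each list. Solid lines are the broad domains and dashed lines are regions of 3 to under 10 kb, and at 3 kb outside the solid line lies above the dashed one in each list.

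The most isolated domain was 3L:7230988-7258200, 27.2 kb wide with a score of 0.85. Its gaps were 78544 and 54585 bases, and replicates 1 and 2 covered 79.0% and 96.6% of it. It was followed by 3L:20722116-20734740 (nearer gap 26341 bases), 3R:23560926-23573075 (25736), 3R:24448932-24461079 (15195) and X:16609690-16621224 (14974). The last 4 were all between 11.5 and 12.6 kb wide.

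Some of the short gaps beside domains were bridged in a replicate. Of 172 gaps under 100 bases next to a broad domain, a single region of replicate 1 ran across 71 (41.3%) and one of replicate 2 across 50 (29.1%). Regions of both did so at 4, and neither at 55. Of 439 gaps of 100 to under 500 bases, replicate 1 bridged 120 (27.3%), replicate 2 bridged 31 (7.06%) and both bridged 0. When enriched regions closer than 100 bases were joined first, a setting chosen after seeing the data, there were 1113 domains of 10 kb or more. Of these, 863 were members as deposited, 90 held no member and 19 held 2 or more. When regions closer than 500 bases were joined there were 1294, of which 471 were members as deposited, 341 held no member and 83 held 2 or more members. The widest then measured 84.9 kb.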

How the data were processed

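The authors deposited a region list per ChIP sample and a combined one. The submitters' processing notes name Bowtie 0.12.7, and coordinates are on FlyBase release 5, per the file headers. For the region caller, its threshold and the making of the combined list, the sources used here give nothing. A deposited score, whose scale no file states, comes with each region, and depleted regions were set aside. Read depth is unknown. Wilson intervals treat regions as independent and cover counting error at most.

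Enriched regions of 10 kb or more in the combined list were the members. Distances were counted between ends, overlap meant at least 1 shared base, and coordinates are 1-based. Members, measures and named regions (the rule took extremes of width, score, coverage, pieces, gaps and chains) were chosen with earlier results of these data known. No gene is named and no sequence printed, because the only gene table given is on release 6. Nothing was tested, since regions are not replicates. Alternatives changed the width threshold, merging, sequences, scores, list and cut-offs. Python 3.11.15, NumPy 2.4.6, SciPy 1.17.1 and Matplotlib 3.10.9 were used. Members, gaps, spacing, neighbours and continuity were tested on a simulated chromosome and came back in 20 of 20 trials. The other measures were not part of that test.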

Additional observations from a re-analysis of the deposited data

Results flagged for a closer look

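Depleted regions (scores under 0) were left out of all comparisons above. In replicate 2, 5 of 39 overlapped a broad domain, and 7 lay within 5 kb of one. For scale, the broad domains held between 10.8% of the arm 2L and 18.2% of 2R. The overlaps are given because they lie in data not otherwise used. Their share was not tested against that extent or against that of the other lists. The 5 depleted regions lay in the domains 2L:8683353-8695560, 3L:17895409-17912442, 3L:18798405-18813068, 3R:2945305-2957011 and 3R:15712063-15722891. Their scores were between -0.0456 and -0.0133. Enriched regions of replicate 1 covered 100% of the first 4 and 78.1% of the last. Of the 17 depleted regions of the combined list, 0 overlapped a broad domain, and 4 lay within 5 kb of one. The broad domains are enriched calls of that same list, so the 0 cannot be set against the count of replicate 2.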

How the results depend on the processing

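There were 63 alternatives over 8 values. Of these, 31 stayed within the spread of the replicates (counts: within 1.5 times) and 32 moved beyond it. A change of sign, seen in 0, was possible only for the rho, since the other values cannot be negative. The cause of the moves was not tested. A 15 kb threshold gave 467 domains, 22.7% of enriched bases, a median spacing of 110830.5 bases, 19.5% with a broad neighbour and rho 0.21. An 8 kb threshold gave 46.9% of bases, 22551.5 bases, 41.2% and rho 0.33. Merging regions closer than 500 bases gave 55.0% of bases, a spacing of 25814 bases, 36.4% with a neighbour, rho 0.32, a nearer gap of 1153 bases and flanking regions of 4348 bases. The higher-scoring 50% of the list gave 48.5% of bases, a nearer gap of 800.5 bases and flanking regions of 5872 bases. A neighbour limit of 2 kb gave 21.5% and one of 10 kb 44.8%. Continuity in both replicates was 17.3% at 80% and 34.3% when all regions of a replicate counted together. With either replicate list alone in place of the combined one, values ran from 612 to 738 domains, 23.7% to 33.1% of bases, spacing of 67322 to 73528 bases, 18.2% to 22.7% with a neighbour, 23.7% to 29.6% continuous (in 1 other list), rho 0.26 to 0.31, nearer gaps of 480 to 932 bases and flanking regions of 3581 to 3806 bases. No paired analysis was possible because the input samples sharing the replicate numbers have no region list here.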
